A study of Mus musculus with 33 samples.

Results

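The subcortical maternal complex is a protein assembly that mammalian oocytes build up during growth and that persists into the early embryo, named for the region under the cell cortex where staining first placed it. It is encoded by maternal effect genes, which are transcribed in the oocyte and whose loss in the mother stops or disturbs the first cleavages of her embryos, and it is tied to the cytoplasmic lattices in which oocytes store proteins. The genes described here were taken by symbol as 7 core members of the complex: Nlrp5 (the protein is also known as NALP5 or MATER), Ooep, Tle6, Khdc3, Padi6, Zbed3 and Nlrp2. Each symbol matched 1 entry among the 35321 genes of the count table, so that all 7 members were found, and all 7 were above the filter on low counts in every comparison.

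The RNA of 33 single oocytes at the germinal vesicle stage, the long arrest before meiosis resumes, was sequenced one oocyte at a time. The oocytes came from the ovaries of 3-week-old female mice on a C57BL6/Babr background, 10 from Nlrp5 +/+ (wild-type), 16 from Nlrp5 +/- and 7 from Nlrp5 -/- females. The mutant allele was a frameshift deletion made with CRISPR/Cas9 in 1 mouse line. The -/- and +/- females were littermates, whereas the +/+ females came for the most part from the colony in which the line was made. No treatment was given. The labels name no mouse for any oocyte, so the oocytes of 1 genotype and stage stand for 1 sample. No p-value was computed for this reason, and each standard deviation (SD) below describes oocytes and not animals.

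Growing oocytes pass from a state in which chromatin does not surround the nucleolus (NSN) to one in which it does (SN), and transcription falls silent on the way. The labels give no such stage. It was taken from the study's published figures, where 32 oocytes carry one: 4 +/+, 9 +/- and 4 -/- oocytes were NSN, 6 +/+, 7 +/- and 2 -/- oocytes were SN, and 1 -/- oocyte had none. The written description of the study states smaller +/- groups than its figures show, so the stages of +/- oocytes are less certain. The study assigned the stage from marker genes measured in these same libraries. Of the members, 1 is on those marker lists: Zbed3 is among the 59 genes used as higher in SN oocytes, and no member is among the 105 used as higher in NSN oocytes. The stage difference of Zbed3 was therefore partly fixed by the choice of stages and is given as a description.

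Libraries held 4223595 to 15573360 counts on genes, with a median of 7724335, and 14838 to 19735 genes with at least 1 count. The 7 members together took 1.38% to 2.57% of all counts of a library. Each first sequencing index occurred with 1 genotype only, so that library set and genotype cannot be told apart. All 10 oocyte markers, among them Zp3 and Gdf9, were counted in every group, at a summed 16518 to 32396 CPM (counts scaled to the same total in every library). The 13 granulosa cell markers summed to 76.4 to 124 CPM in +/+ oocytes, 79.8 to 143 in +/- oocytes and 84.5 to 408 in the staged -/- oocytes, and to 1029 in the -/- oocyte without a stage. Foxl2, Amh and Grem1 were at 0 in all NSN +/+ oocytes and Grem1 was at 0 in the NSN -/- oocytes. The 7 theca and interstitial markers reached at most 6.81 CPM in +/+, 317 in +/- and 217 in staged -/- oocytes, with Hsd3b1 holding 82.0% of this sum in the NSN -/- oocytes and Cyp17a1 and Insl3 at 0 in all NSN +/+ oocytes. The 11 stroma, vessel and blood markers summed to 45.9 to 84.2 CPM in +/+ and 75.4 to 114 CPM in staged -/- oocytes, most of it Pecam1, with Cdh5 and Lyz2 at 0 in the NSN +/+ and Ptprc at 0 in the staged -/- oocytes.

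The members lie on different chromosomes, except that Nlrp5 and Nlrp2 are both on chromosome 7 and Ooep and Khdc3 both on chromosome 9. In the GRCm38 coordinates of the table, Nlrp5 (ENSMUSG00000015721) spans chr7:23385889-23441922 on the plus strand. Ooep (ENSMUSG00000032346) is a short gene at chr9:78376109-78378725 on the minus strand. Khdc3 (ENSMUSG00000092622), at chr9:73101836-73104438, lies under a second entry, Gm20509, on the same strand. That entry carried 66.8% to 76.4% as many counts as Khdc3 in each oocyte and followed it with a Pearson r of 0.99 over 33 oocytes, so the values of Khdc3 are uncertain, since reads of the 2 entries may not have been told apart. Nlrp2 overlaps Gm5065 on the opposite strand, which averaged 1090 counts against 3920 for Nlrp2. Whether counting used strand is not given in the sources used here. Nlrp2 and Nlrp5 also belong to a family of similar genes, so reads that match several of its members remain uncertain.

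The sequences before the gene starts are shown for Nlrp5, as the mutated gene, and for Ooep, Khdc3, Tle6 and Zbed3, which form the 2 pairs whose RNA levels moved together most closely from oocyte to oocyte. Each is the 250 bases before the RefSeq start on GRCm38.p6, read 5′ to 3′ on the gene's own strand. Capitals mark E-boxes (CANNTG, bound by basic helix-loop-helix proteins such as FIGLA) and the element TAATTG, associated with the oocyte homeobox protein NOBOX, each searched on both strands with overlapping matches counted separately.
Nlrp5, chr7:23385639-23385888, plus strand: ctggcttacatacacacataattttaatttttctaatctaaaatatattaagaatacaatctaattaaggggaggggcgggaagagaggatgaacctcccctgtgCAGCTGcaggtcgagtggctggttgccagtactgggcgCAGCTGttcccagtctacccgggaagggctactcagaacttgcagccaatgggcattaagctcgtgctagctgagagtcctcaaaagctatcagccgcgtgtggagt
Ooep, chr9:78378589-78378838, minus strand: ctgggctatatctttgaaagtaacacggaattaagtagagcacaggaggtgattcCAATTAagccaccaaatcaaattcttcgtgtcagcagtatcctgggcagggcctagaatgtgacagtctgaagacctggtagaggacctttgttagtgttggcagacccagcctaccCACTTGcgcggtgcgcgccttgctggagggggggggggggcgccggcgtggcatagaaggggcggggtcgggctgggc
Khdc3, chr9:73102148-73102397, plus strand: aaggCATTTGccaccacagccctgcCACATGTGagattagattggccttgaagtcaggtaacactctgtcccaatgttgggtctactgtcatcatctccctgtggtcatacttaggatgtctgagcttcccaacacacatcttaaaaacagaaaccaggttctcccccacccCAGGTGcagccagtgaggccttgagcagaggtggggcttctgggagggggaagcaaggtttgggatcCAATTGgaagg
Tle6, chr10:81600901-81601150, minus strand: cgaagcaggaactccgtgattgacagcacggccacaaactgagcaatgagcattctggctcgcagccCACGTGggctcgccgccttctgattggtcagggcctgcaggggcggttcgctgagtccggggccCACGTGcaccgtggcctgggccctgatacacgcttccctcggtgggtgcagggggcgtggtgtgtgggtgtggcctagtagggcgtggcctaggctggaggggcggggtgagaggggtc
Zbed3, chr13:95323355-95323604, plus strand: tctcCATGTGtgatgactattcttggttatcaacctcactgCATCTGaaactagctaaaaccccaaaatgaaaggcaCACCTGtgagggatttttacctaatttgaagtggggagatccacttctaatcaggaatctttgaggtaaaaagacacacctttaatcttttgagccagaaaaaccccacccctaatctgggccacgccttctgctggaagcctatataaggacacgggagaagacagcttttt
The window of Nlrp5 held 2 E-boxes, that of Ooep 1, that of Khdc3 5, that of Tle6 2 and that of Zbed3 3. Padi6 had 2 and Nlrp2 none in the windows searched. An E-box of these letters occurred in 66.2% of the 32841 windows of the same length, and 2 or more in 31.8%. Ooep alone among the 7 windows held TAATTG, read on the opposite strand, against 7.17% of all windows. Both E-boxes of Tle6 had the letters CACGTG. The RefSeq start used for Khdc3 lies 562 bases from the start of the table's entry, that of Tle6 173, that of Ooep 137 and that of Zbed3 7 bases, while those of Nlrp5, Padi6 and Nlrp2 coincide with it. RefSeq lists 2 starts for Nlrp5, 2 for Tle6 and 3 for Zbed3, and the one nearest to the table's start was used. A match of letters is a description and says nothing of binding.

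Members differed widely in level, and Padi6 and Zbed3 stood above the rest. On a scale of normalized counts per kilobase of exon, brought to the same total in every library, Padi6, a peptidylarginine deiminase family member needed for the lattices, averaged 13957 ± 2609 (SD, n = 4) in NSN +/+ oocytes, rank 1 among 34755 genes with an exon length. Its rank lay between 1 and 5 in the 6 groups of genotype and stage. Zbed3, a BED zinc finger protein linked to spindle placement, had a per-length level of 6918 ± 1941 in the same oocytes and ranks 8 to 11 over the groups. Ooep (3689 ± 413) and Tle6 (2765 ± 901) followed. Ooep encodes a KH-domain protein and Tle6 a relative of the Groucho co-repressors, and their proteins form a core with NLRP5. Nlrp5 itself, with 2026 ± 950, and Khdc3, with 1940 ± 265, could not be ordered, since Nlrp5 was the higher of the pair in 2 of the 4 oocytes. Nlrp2, a second NLR family gene, was the lowest at 659 ± 59.3 and was still at rank 178.

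The order changed in mutants at Nlrp5 and between Ooep and Tle6. In all 4 NSN and both SN -/- oocytes, the per-length level of Nlrp5 was under that of Nlrp2, at 232 ± 64.5 and 229 ± 20.3, which put it at ranks 652 and 691. Tle6 was above Ooep in 4 of 4 NSN and 2 of 2 SN -/- oocytes, whereas Ooep was above Tle6 in 4 of 4 NSN +/+ and in 4 of 6 SN +/+ oocytes. The +/- oocytes showed both orders, with Ooep above Tle6 in 6 of 9 at NSN and Tle6 above Ooep in 5 of 7 at SN. The ranges of Ooep and Tle6 overlapped in all 4 groups of +/+ and +/- oocytes.

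**Figure D1:**
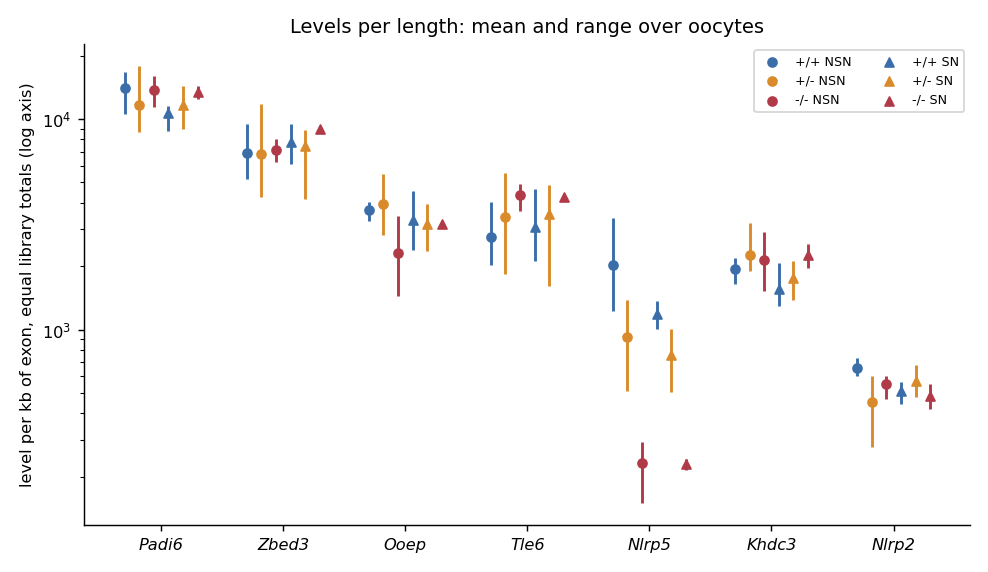
Level of each member per kilobase of exon, on a scale with the same total in every library (log axis), by genotype (colour) and stage (circles NSN, triangles SN). Points are means and lines the range over oocytes. Padi6 is highest in each group and the -/- means of Nlrp5, 232 and 229, lie under those of Nlrp2.

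Nlrp5 RNA was lowest in -/- oocytes at both stages and intermediate in +/- oocytes. In NSN +/+ oocytes its normalized counts, that is counts divided by a size factor per library, were 10691, 13910, 17457 and 29131. In NSN -/- oocytes they were 1362, 1927, 2393 and 2556. Every -/- oocyte was thus under every +/+ oocyte, by a wide gap.

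The NSN means were 17797 ± 8045 (SD, n = 4) in +/+ and 2060 ± 536 (n = 4) in -/- oocytes, so that -/- oocytes held 11.6% of the +/+ level (log2 fold change -3.11). The sums behind these means were 88828 counts (95% Poisson interval 88245 to 89414) and 7789 counts (7617 to 7964), and these intervals cover counting error only. Of 13833 genes compared, 8 others were as low or lower in fold change. A log2 fold change at or under -0.5 was found for 13.3% of the genes and one at or over 0.5 for 15.6%. Groups in which every -/- oocyte lay below every +/+ oocyte were found for 3.14% and the opposite for 3.96%. Nlrp5 RNA was not absent in the -/- oocytes. The counts are over the whole gene and do not show which part of the transcript or which allele they came from.

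In SN oocytes the same order held. Normalized Nlrp5 counts ran from 10114 over a median of 11257 to 14817 in the 6 +/+ oocytes and were 2105 and 2260 in the 2 -/- oocytes, with no overlap. The -/- mean of 2182 ± 110 was 18.7% of the +/+ mean of 11699 ± 1669 (log2 fold change -2.42, sums of 4683 counts, interval 4550 to 4819, and 99482 counts, interval 98865 to 100102). In this comparison 18.7% of 13351 genes were past the fold downward and 15.9% upward, and 7.85% and 7.24% did not overlap with -/- below and above. With only 2 -/- oocytes, a gap between the groups says less here than at NSN. The -/- oocyte without a stage had 1378 normalized counts of Nlrp5, inside the range of the other -/- oocytes. It also carried the most granulosa marker RNA.

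The heterozygous oocytes addressed gene dose. NSN +/- oocytes ran from 5148 over a median of 8233 to 13472 normalized Nlrp5 counts, with 7 of 9 below the lowest +/+ oocyte, so that the ranges met. Their mean of 8802 ± 2588 was 49.5% of the +/+ mean (log2 fold change -1.02), and their median was 52.5% of the +/+ median. It stood at 42.8% of the way from the -/- to the +/+ mean, where 9929 would be midway. One +/+ oocyte, number 79 in the labels with 29131 normalized counts, weighed on this value, and without it the log2 fold change was -0.67.

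SN +/- oocytes ran from 5062 over 6232 to 9690 normalized Nlrp5 counts, and all 7 were below all 6 +/+ oocytes. Their mean of 7206 ± 1762 was 61.6% of the +/+ mean (log2 fold change -0.70) and their median 55.4% of the +/+ median. It stood 52.8% of the way from -/- to +/+ by means and 44.6% by medians, with a midpoint of 6941 between the means. The +/- means thus lay near the midpoint between the homozygous genotypes at both stages, and the SD over +/- oocytes was larger than their distance from it.

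Such a gap was uncommon among genes in the heterozygotes. At NSN, 8.61% of 13732 genes were past the fold downward in +/- against +/+ oocytes and 10.8% upward, while 0.269% lay wholly below and 0.175% wholly above. At SN the shares past the fold were 5.29% down and 5.33% up of 13295 genes, and 0.0602%, or 8 genes with Nlrp5 among them, lay wholly below and 0.0226% wholly above. Among the 1854 genes with a mean of at least 1000 normalized counts in that comparison, a cutoff chosen after the data were seen, 12 were past the fold downward and 2 had a fold change as low as Nlrp5, itself included. Against +/- oocytes, the -/- oocytes had log2 fold changes of Nlrp5 of -2.09 at NSN and -1.72 at SN, without overlap at either stage. The corresponding shares of genes were 14.9% down, 12.2% up, 0.686% wholly below and 0.476% wholly above at NSN, and 17.6%, 14.6%, 5.81% and 5.25% at SN. This last comparison sets littermates side by side. The +/- libraries also ranged higher than the +/+ libraries in granulosa and theca marker RNA, and the part of this in the result was not tested. Without the 11 libraries whose granulosa marker sum was above that of every +/+ library, the log2 fold changes of Nlrp5 at NSN were -3.04 for -/- against +/+, -0.98 for +/- against +/+ and -2.06 for -/- against +/-, and at SN -0.51 for +/- against +/+.

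**Figure D2:**
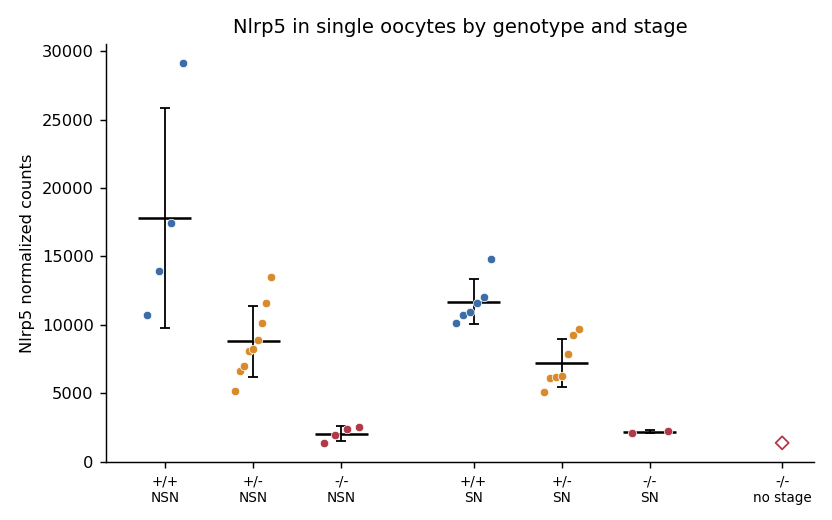
Normalized counts of Nlrp5 in each oocyte by genotype and stage, with the mean (bar) and SD over oocytes (whiskers) and the -/- oocyte without a stage as an open diamond. The -/- oocytes lie between 1362 and 2556, below every +/+ oocyte, and the +/- means of 8802 and 7206 lie between those of the other genotypes.

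The other 6 members showed no common shift with the loss of Nlrp5 at NSN. At NSN, 1 of the 6 was past the fold downward in -/- against +/+ oocytes (Ooep) and 1 upward (Tle6), and 4 were within it. Their median log2 fold change was 0.03, against 0.00 over all genes compared. The share of genes past the fold, given above, was larger than that among abundant genes, where of 1708 with a mean of at least 1000 normalized counts 3.92% were past it downward and 7.49% upward. Against +/- oocytes at NSN the median of the 6 was 0.06. There Ooep alone was past the fold, downward, where 14.9% of all genes were past it downward and 12.2% upward.

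Ooep was the lowest of the 6. It had 12884, 14055, 15712 and 15915 normalized counts in NSN +/+ oocytes and 5687, 7380, 10147 and 14152 in NSN -/- oocytes. Of the -/- oocytes 3 were below all +/+ oocytes, and the remaining one lay within the +/+ range. The means were 14642 ± 1438 and 9341 ± 3697 (log2 fold change -0.65, or 63.8% of +/+), and the SD over -/- oocytes was as wide as most of the difference. The value was -0.47 with summed in place of averaged counts and -0.47 without -/- oocyte 13, which was the lowest, and -0.92 without -/- oocyte 14, which was the highest and carried 408 CPM of granulosa marker RNA. Without both of these marker-rich libraries it was -0.74. Among abundant genes, 20 of 1708 were as low or lower, Ooep included.

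Ooep was also lower in -/- than in +/- oocytes at NSN. The +/- oocytes ran from 11560 over 15176 to 26510 normalized counts, with a mean of 17227 ± 4652, and 3 of 4 -/- oocytes were below all 9 of them (log2 fold change -0.88). The difference was not seen at SN, where the 2 -/- oocytes had 13026 and 14163 normalized counts and the 6 +/+ oocytes ran from 10253 over 12871 to 20624 (log2 fold change -0.14). A test of whether the genotype difference changed with stage was not possible with these samples.

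Tle6 was the highest of the 6 in fold change at NSN. Its normalized counts were 11836, 12278, 15336 and 22478 in NSN +/+ oocytes and 20279, 24444, 26095 and 28247 in NSN -/- oocytes. The groups met only through +/+ oocyte 87, the highest, and -/- oocyte 29, the lowest. The means were 15482 ± 4917 and 24766 ± 3372 (log2 fold change 0.68, and 0.43 when stage was disregarded). Among abundant genes, 39 of 1708 were as high or higher, Tle6 included. In NSN +/- oocytes Tle6 ran from 11736 over 22382 to 31012 normalized counts, around a mean of 20690 ± 6805, and this range spanned both homozygous groups. Against these +/- oocytes the log2 fold change of the NSN -/- oocytes was 0.26, and none of the 4 lay above all 9. The -/- oocyte without a stage had 16335, under every staged -/- oocyte and inside the NSN +/+ range. In SN oocytes it averaged 19321 ± 6040 in +/+ and 25904 ± 1541 in -/- oocytes, within the +/+ range of 12629 to 28364 (log2 fold change 0.42).

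Because Tle6 and Ooep differed in opposite directions, their ratio within a library, which no scaling of libraries can move, was compared as well. The pair was chosen because their values differed most, so the ratio restates those differences and is no further evidence of them. There were 0.781, 0.842, 1.19 and 1.41 Tle6 counts per Ooep count in NSN +/+ oocytes and 1.73, 2.75, 2.78 and 4.59 in NSN -/- oocytes. At SN the ratio ran from 0.772 to 2.77 in +/+ oocytes and was 1.90 and 1.91 in -/- oocytes, inside that range. The 9 NSN +/- oocytes ran from 0.583 to 2.18.

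The remaining members lay closer to +/+ at NSN. Khdc3, a KH-domain protein also called FILIA, had 5632, 7533, 8219 and 11165 normalized counts in -/- oocytes against 6471, 6472, 7995 and 8047 in +/+ oocytes (log2 fold change 0.17), and the groups overlapped. Its direction was not stable, at -0.02 without -/- oocyte 14 and -0.14 without the libraries richer in granulosa marker RNA. Padi6 averaged 63936 ± 10673 in -/- and 64200 ± 11535 in +/+ oocytes (-0.01). Zbed3 averaged 34754 ± 3603 and 33399 ± 9063 (0.06). Neither differed by more than a small part of its spread. Nlrp2 had 3069, 3477, 3785 and 3921 normalized counts in -/- oocytes and 3782, 3933, 4535 and 4573 in +/+ oocytes, with the upper 2 of the -/- values inside the +/+ range (-0.24).

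In NSN +/- against +/+ oocytes none of the 6 was past the fold, with a median log2 fold change of 0.16 against 0.04 over all genes. Of all genes 8.61% were past it downward and 10.8% upward, and of abundant genes 4.1% and 3.81%. Nlrp2 came closest on the lower side. It ran from 2031 over 2952 to 3980 in +/- oocytes, 8 of 9 below the lowest of the 4 +/+ oocytes (log2 fold change -0.43). On the higher side were Tle6 (0.42) and Khdc3 (0.36), the latter with 6 of 9 +/- oocytes above all +/+ oocytes at a mean of 9273 ± 2121 against 7246 ± 895. Nlrp2 was not lower in SN +/- oocytes, at 3938 ± 536 against 3661 ± 438 in +/+ oocytes (0.11).

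At SN none of the 6 members was past the fold in -/- against +/+ oocytes. Of all genes 18.7% were past it downward and 15.9% upward, and of abundant genes 15.1% and 3.85%. The median of the 6 was 0.23 against 0.00 over all genes and -0.08 over abundant genes, with Ooep and Nlrp2 lower and the rest higher. Against +/- oocytes none was past it, where 17.6% of all genes were downward and 14.6% upward. That median was 0.24 against 0.01 over all genes and -0.04 over abundant genes. Khdc3 had 7765 and 10592 normalized counts in the 2 -/- oocytes and 5287 to 8817, with a median of 5837, in the 6 +/+ oocytes (log2 fold change 0.48). Padi6 had 60686 and 73478 against 42878 to 63056 (0.29), Zbed3 45045 and 49517 against 36349 to 49659 (0.17), and Nlrp2 2972 and 3692 against 3222 to 4414 (-0.14). In each of these the -/- pair overlapped the +/+ range. In SN +/- against +/+ oocytes the 6 values lay between -0.13 (Ooep) and 0.15 (Tle6).

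**Figure D3:**
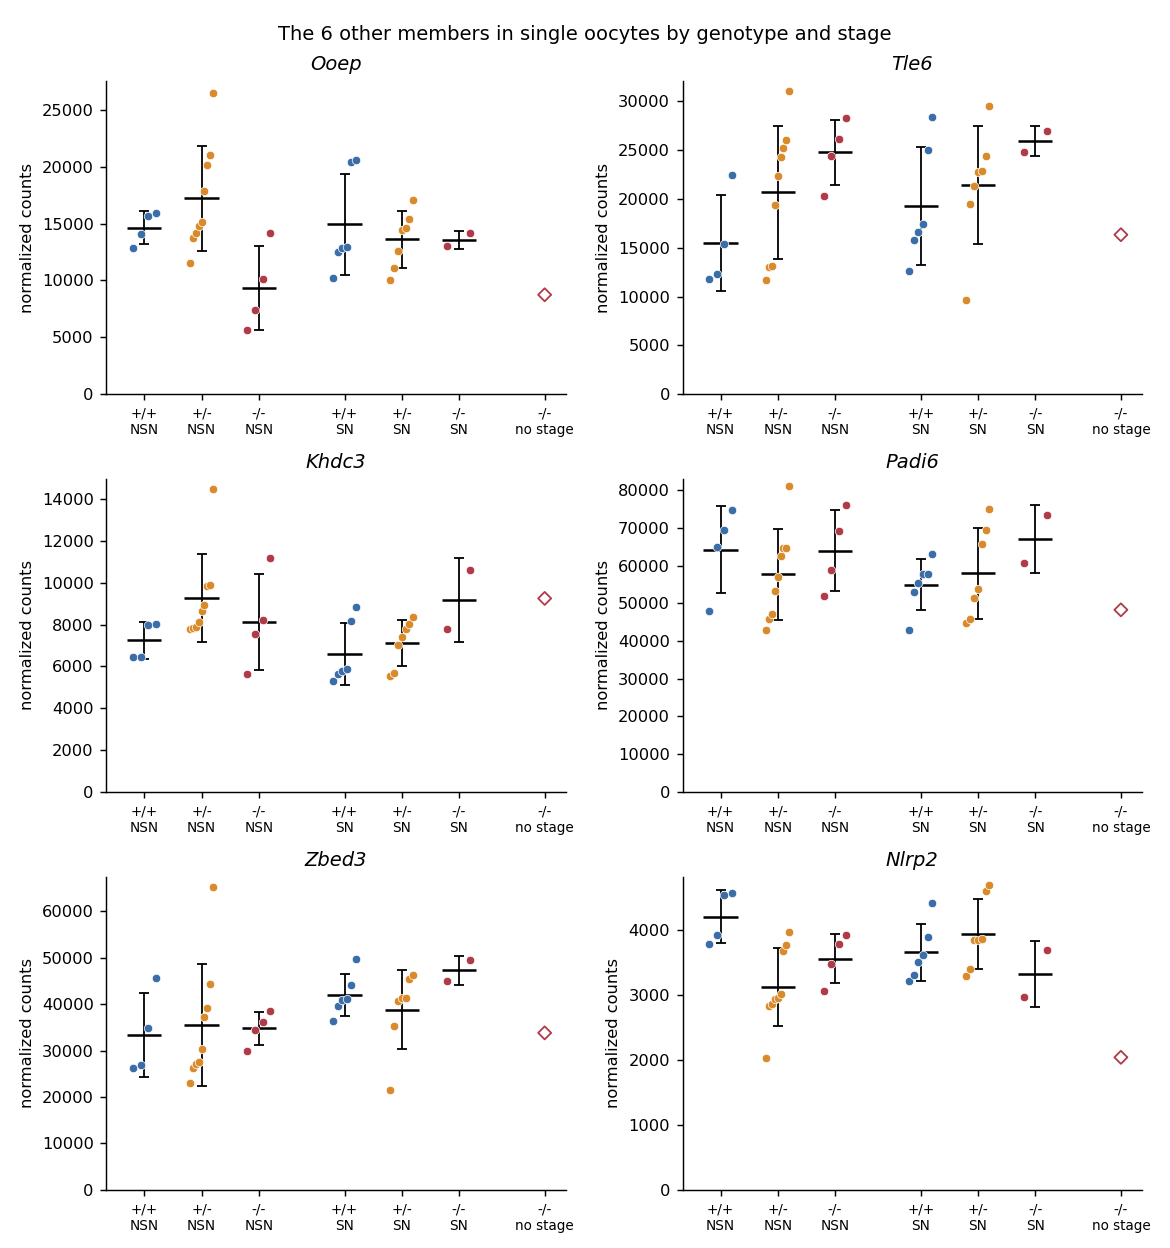
Normalized counts of Ooep, Tle6, Khdc3, Padi6, Zbed3 and Nlrp2 in each oocyte by genotype and stage, with mean (bar) and SD over oocytes (whiskers), and the unstaged -/- oocyte as an open diamond. NSN -/- oocytes lie low for Ooep (5687 to 14152) and high for Tle6 (20279 to 28247), and the groups of the other members overlap.

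The stage comparison asked how the members' RNA differed between NSN and SN oocytes of 1 genotype. In +/+ oocytes Nlrp5 was lower at SN, at 11699 ± 1669 (n = 6) against 17797 ± 8045 (n = 4), a log2 fold change of -0.61. All 6 SN oocytes were under the NSN mean, but only 1 was under the lowest NSN oocyte. Without oocyte 79 the value was -0.26, and within the 3 index sets that hold both stages it was -0.04, -0.24 and -0.85. In that comparison 20% of 13576 genes were past the fold downward and 13.9% upward, and among the 1790 abundant genes 2.57% and 11.6%.

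In +/- oocytes the Nlrp5 stage difference was -0.29, with 2 index sets at 0.15 and -0.59, and in -/- oocytes it was 0.08. The shares of genes past the fold were 19.4% down and 9.33% up of 13613 in +/-, and 23.8% down and 14.3% up of 13840 in -/- oocytes. Among abundant genes they were 3.15% and 9.18% in +/- and 6.08% and 9.03% in -/- oocytes. Whether the stage difference of Nlrp5 differs between genotypes was not tested.

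None of the other 6 members was past the fold between stages over all +/+ or all +/- oocytes, and 1 was in -/- oocytes. Within the 2 +/- index sets that hold both stages, however, Tle6 was lower at SN in both, by log2 values of -0.82 and -0.25, with a mean of -0.54 past the fold where the value over all +/- oocytes was 0.05. The set at -0.82 held 1 SN oocyte, number 55, and the other set alone was within the fold. In -/- oocytes Ooep was higher at SN, at 13595 ± 804 (n = 2) against 9341 ± 3697 (n = 4), a log2 fold change of 0.54. It was 0.36 without oocyte 13. The 2 SN values of 13026 and 14163 lay around the highest NSN value of 14152. In +/- oocytes the Ooep difference was -0.34, with index sets at -0.88 and 0.12, and in +/+ oocytes 0.03.

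Zbed3, the member used for staging, was higher at SN in all 3 genotypes, by 0.33 in +/+, 0.13 in +/- and 0.44 in -/- oocytes. Within index sets it was higher at SN in 2 of 3 +/+ sets, 1 of 2 +/- sets and the only -/- set. Khdc3 had -0.14, -0.38 and 0.17 in the 3 genotypes in that order, Nlrp2 -0.20, 0.34 and -0.10, Padi6 -0.22, 0.01 and 0.07, and Tle6 0.32, 0.05 and 0.06. Among abundant +/+ genes the median stage difference was 0.19, against a median of -0.05 for the 6 members.

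**Figure D4:**
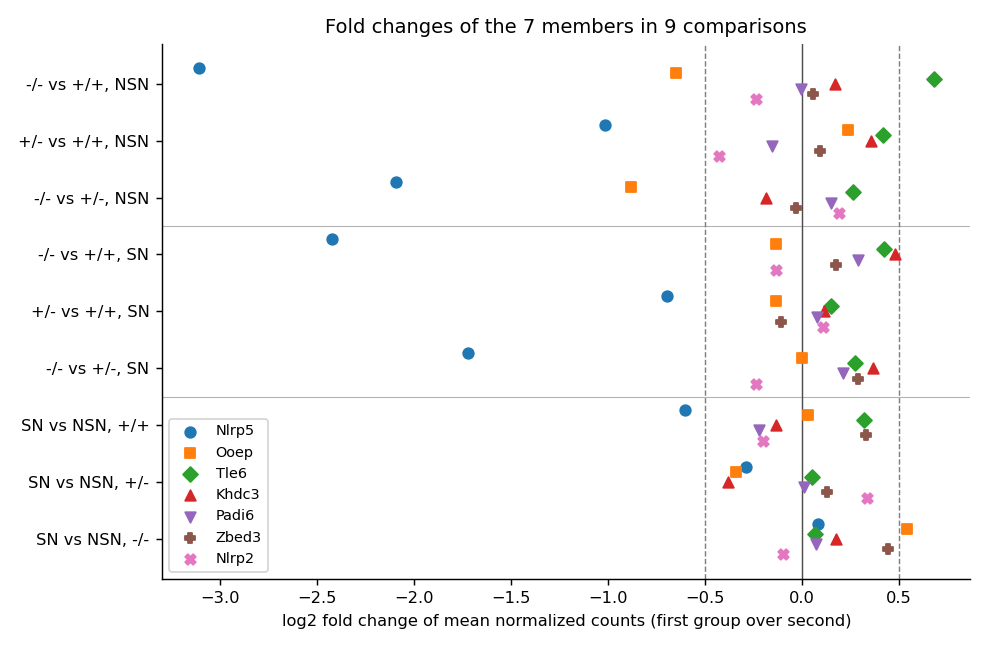
Log2 fold change of mean normalized counts for each member (symbol and colour) in 9 comparisons, 6 between genotypes and 3 between stages, with dashed lines at -0.5 and 0.5. Nlrp5 lies beyond the lower line in all 6 genotype comparisons, from -3.11 to -0.70, while the other members mostly lie between the lines.

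Some members varied more and some less than other abundant genes among oocytes of 1 group. The coefficient of variation (SD over mean) was 45.2% for Nlrp5 in NSN +/+ oocytes, above 98.03% of the 1774 genes with a mean of at least 1000 normalized counts, and 14.3% in SN +/+ oocytes, above 25.4% of them. Without oocyte 79, a setting chosen after the values were seen, the NSN +/+ value was 24.1%, above 67.5% of these genes. For Tle6 it was 28.4% to 32.9% in +/+ and +/- oocytes and 13.6% in NSN -/- oocytes, but the NSN +/+ value was 14.5% without oocyte 87, chosen in the same way. Nlrp2 had the smallest or next to smallest spread of the members, 9.68% to 19.3% over the 5 groups with at least 4 oocytes.

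The members did not vary as 1 block. After the mean of each group of genotype and stage was subtracted from log2 values, 4 of the 21 pairs of members had a Pearson r over 0.5 across 32 oocytes, 9 had one under 0, and the median was 0.11. Pairs of other genes were not counted in this way. Whether such values are particular to the members is therefore not known, and they are given as a description. Ooep and Khdc3 formed the closest pair (r = 0.66, Spearman's rho = 0.58). Without the 2 oocytes farthest from the median of Ooep r was 0.51. It was 0.90 within the 6 SN +/+ oocytes, 0.67 within the 9 NSN +/- oocytes and 0.57 within the 7 SN +/- oocytes. Tle6 went with Zbed3 (r = 0.61, rho = 0.56) and with Padi6 (r = 0.58, rho = 0.50), with 0.50 and 0.52 after leaving out the 2 oocytes farthest in Tle6. Nlrp5 went with Nlrp2 (r = 0.57, rho = 0.52) and against Zbed3 (r = -0.46, rho = -0.40). Removing oocytes 55 and 61, whose values of Zbed3 were the lowest and the highest of all, moved these last 2 to 0.45 and -0.28.

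Ooep and Tle6, whose proteins form a core with NLRP5, had an r of 0.03 over all 32 oocytes, which joins -0.48 in SN +/+ (n = 6), -0.03 in NSN +/- (n = 9) and 0.58 in SN +/- oocytes (n = 7). The points of each relation share a library, so library quality and true differences between oocytes enter both axes. The log2 total count of a library had an r of -0.14 to 0.28 with the members on the same scale. The promoter windows printed above held 1 E-box in Ooep and 5 in Khdc3, and 2 in Tle6 and 3 in Zbed3. The Khdc3 window lies inside the table's entry for that gene. Any part of these sequences in the relations was not tested.

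**Figure D5:**
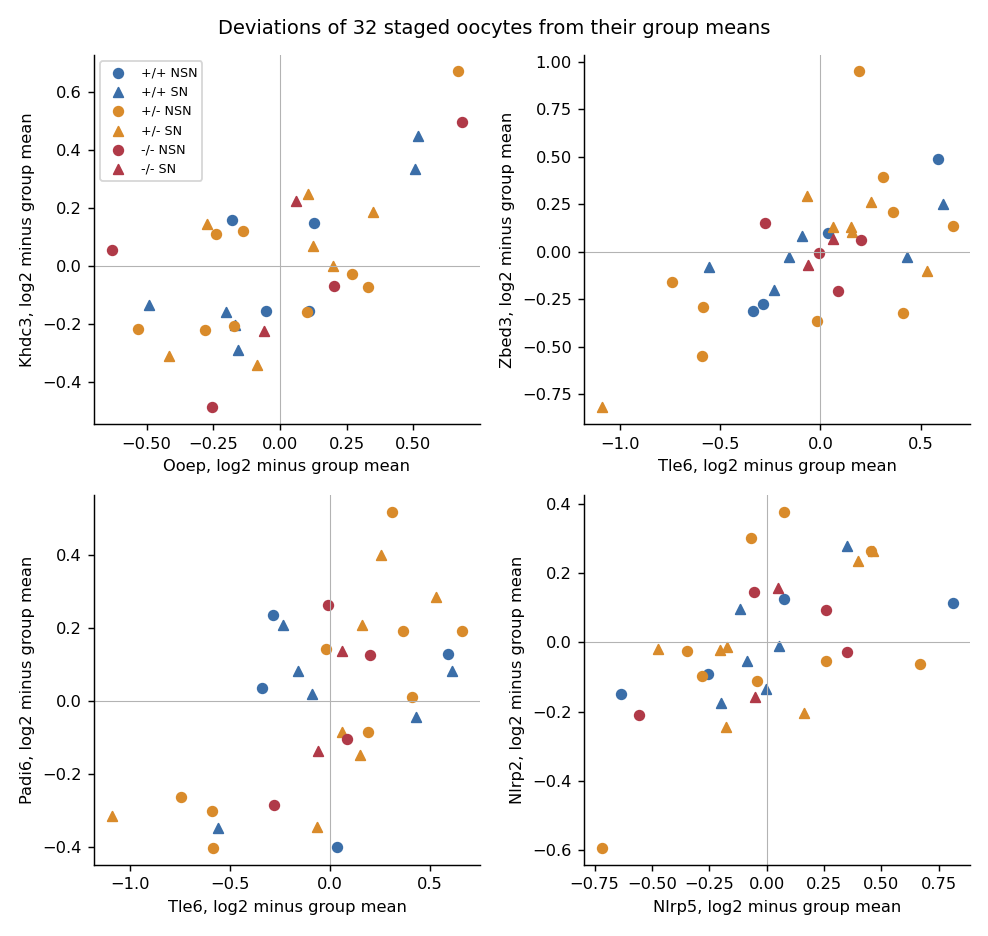
Deviation of each of 32 staged oocytes from its group mean (log2 of normalized counts) for the 4 pairs of members with a Pearson r over 0.5, by genotype (colour) and stage (symbol). Points run from lower left to upper right, with r from 0.57 for Nlrp5 and Nlrp2 to 0.66 for Ooep and Khdc3.

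Genes tied to the complex by family, binding or function were looked at as a list of 22 symbols, of which 21 were in the table. They include further oocyte NLR genes (Nlrp14, Nlrp4 and Nlrp9 genes), the DNA methylation proteins Dnmt1, Dnmt3l and Uhrf1, the Khdc1 genes, Zar1 and Ybx2. At NSN, 1 of the 21 was past the fold downward in -/- against +/+ oocytes and 1 upward, with a median of -0.09. At SN, 8 were past it downward and none upward, with a median of -0.38, where 18.7% of all genes and 15.1% of abundant genes were past the fold downward. The 6 core members had none past it in the same libraries. Since the list was put together with earlier results known, its counts are a description.

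Of these genes the furthest from 0 at NSN were Khdc1c, a KH-domain relative (637 normalized counts on average in +/+ and 355 in -/- oocytes, log2 fold change -0.84), Tubb2b, a beta-tubulin (1321 and 1993, 0.59), and Nlrp4a (7050 and 5015, -0.49). At SN they were Nlrp4b (6340 and 3529, -0.85), Nlrp4e (897 and 539, -0.73) and Khdc1c (555 and 356, -0.64). The Nlrp4 genes are near copies of each other, so the split of reads among them is uncertain. In +/- against +/+ oocytes at SN, 20 of the 21 were within the fold, the exception being Nlrp4e (0.61). Of all genes 5.29% were past it downward and 5.33% upward. At NSN 2 were past it upward, Dnmt3l (0.55) and Tubb2b (0.52), and none downward, against 10.8% and 8.61% of all genes. In -/- against +/- oocytes 1 was past it downward and 1 upward at NSN. At SN 7 were past it downward in that comparison, lowest Nlrp4e (-1.34), and none upward, against 17.6% and 14.6% of all genes. Of 13 secreted and maternal oocyte genes outside the complex, such as Gdf9 and Zp1, 1 was past the fold downward and 1 upward in -/- against +/+ oocytes at NSN, and 2 downward and none upward at SN. Over all genes the shares were 13.3% down and 15.6% up at NSN and 18.7% down and 15.9% up at SN.

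The genes whose log2 values followed Nlrp5 most closely over all 33 oocytes, among 8436 with a mean of at least 100 normalized counts, included Blzf1 (Pearson r = 0.81) and Txndc12 (0.81). Both were lower in -/- than in +/+ oocytes, with log2 fold changes of -1.99 and -2.36 at NSN. They were chosen by r over oocytes that include the -/- group, where Nlrp5 is low. Their own low values there were therefore partly fixed by the choice and are a description. In +/- against +/+ oocytes they were at -0.20 and -0.13 at NSN, where Nlrp5 was at -1.02, and at -0.39 and 0.17 at SN, where Nlrp5 was at -0.70. No other core member came near them, Ooep being highest with an r of 0.47 at rank 560, and Tle6 lowest with -0.40. The mean of the 6 other members was followed most closely by Tmem255b (0.81), Ddx56 (0.78) and Tsr3 (0.78). These relations over all oocytes include the genotype and stage differences.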

How the data were processed

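Single-oocyte RNA-seq libraries (Smart-seq2 type) of 33 oocytes were analysed. The authors trimmed reads with Trim Galore and aligned them with HISAT2 (versions not given in the sources used here). The column names state GRCm38, whereas the published methods state GRCm39, and the coordinates printed here are those of the table. The deposited table holds raw counts per gene, and shallow libraries had been left out by the authors. How reads were assigned to genes is not given in the sources used here. Not used were 3 deposited tables of the authors' own comparisons, with fold changes and p-values, and a list of read totals of unstated kind.

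Of 35373 entries, 52 with a repeated gene ID were left out. Counts were divided by median-of-ratios size factors over 11845 genes counted in all 33 oocytes (numpy 2.4.6, pandas 2.3.3). Log2 fold changes are of mean normalized counts plus a pseudocount of 1, over genes with a mean of at least 10 in the oocytes compared, and 0.5 was taken as the fold. This scale understates changes of low genes. Genotype came from the labels and stage from the study's figures. Exon lengths came from GENCODE M39 by gene ID (34755 genes), promoters from RefSeq on GRCm38.p6. TMM factors were computed with edgeR 4.0.16. Fold changes were tested on simulated data with known answers. Pearson r and Spearman's rho are given without p-values.

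The members and gene lists were chosen with earlier results of these data known. The genes named are all 7 members, the 3 listed genes tied to the complex with the largest absolute fold change in -/- against +/+ oocytes at each stage, and the 3 genes most like Nlrp5 and most like the mean of the other members, of which 1 is not reported here. Alternatives tried were 3 other scalings, medians, pooled sums, a pseudocount of 5, other filters, other stage calls, index sets, and leaving out libraries.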

Additional observations from a re-analysis of the deposited data

Results flagged for a closer look

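Among the 35 combinations of a member with a group of at least 4 oocytes, 2 held an oocyte far from the rest of its group, by a limit (Dixon's critical value) set so that chance marks about 1 in 20 groups. That is about as many as the limit marks by chance among so many groups, so both are given as a description. Khdc3 stood at 14497 normalized counts in NSN +/- oocyte 56, against 7806 to 9900 in the other 8, and this oocyte also had the highest Ooep value, 26510. Zbed3 stood at 65280.5 normalized counts in NSN +/- oocyte 61, the highest of all oocytes. The same oocyte had the lowest NSN +/- value of both Nlrp5 (5148) and Nlrp2 (2031) and the highest theca and interstitial marker sum of the staged oocytes, 317 CPM, and the fewest genes detected of all libraries, 14838. The part of either in its values was not tested.

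For 2 members every SN oocyte of one genotype lay under the NSN mean of that genotype while every SN oocyte of another lay over its own, and neither difference between genotypes was tested. How many of all genes show such a split was not counted. Other members also had stage differences of opposite sign, without such a split of single oocytes. For Nlrp5, all SN +/+ oocytes lay under the NSN +/+ mean (log2 fold change -0.61), while both SN -/- oocytes lay over the NSN -/- mean (0.08). The opposition was lost without oocyte 14, where the -/- value was -0.07, and the +/+ value was -0.26 without oocyte 79. For Ooep, all SN +/- oocytes lay under the NSN +/- mean (-0.34), while both SN -/- oocytes lay over the NSN -/- mean (0.54). The split did not hold against the NSN +/- median of 15176, which was under the mean of 17227. The highest SN +/- oocyte, with 17091, lay over that median. Within the 2 +/- index sets that hold both stages the Ooep difference was -0.88 and 0.12, so the sets went opposite ways.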

How the results depend on the processing

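No paired analysis was possible because the replicate numbers follow accession order only and pair no oocytes across genotypes or stages. Stages were compared within sets that share a first index instead, as a description. In all 6 genotype comparisons Nlrp5 stayed lower and past the fold under every alternative run, including each oocyte left out in turn. Without regard to stage, Nlrp5 in -/- against +/+ was -2.82 where the SN value was -2.42. In the same setting Ooep in -/- against +/- oocytes was -0.58 where the SN value was -0.0021, Khdc3 0.05 against 0.37, and Nlrp2 -0.08 where the NSN value was 0.19. Nlrp2 in +/- against +/+ oocytes was -0.16, against -0.43 at NSN and 0.11 at SN, and in -/- against +/+ oocytes Padi6 was 0.09 and Zbed3 -0.01 where the SN values were 0.29 and 0.17. Without the libraries richer in granulosa marker RNA, Khdc3 in -/- against +/- oocytes at NSN was -0.59 where it was -0.19 with them. Within index sets the stage difference of Tle6 in +/- oocytes was -0.54 in place of 0.05, and that of Zbed3 in -/- oocytes 0.27 in place of 0.44. The count of the 6 other members past the fold depended more on the settings, and the cause was not tested. For -/- against +/+ at NSN it was 1 with pooled sums and without regard to stage. For -/- against +/+ at SN it was 1 with CPM, with TMM and without regard to stage, and 2 with medians. For +/- against +/+ at NSN it was 2 with medians and 1 with pooled sums. For -/- against +/- it was 2 at NSN without the libraries richer in granulosa marker RNA and 1 at SN without regard to stage. For SN against NSN it was 1 in +/- oocytes within index sets and 0 in -/- oocytes with CPM or pooled sums. With 1 oocyte left out, the count ran from 1 to 2 for -/- against +/+ at NSN, from 0 to 1 for +/- against +/+ at NSN and for both SN comparisons of -/- oocytes, and from 0 to 2 for SN against NSN in +/+ and in -/- oocytes.

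The share of all genes past the fold in either direction fell in all 9 comparisons when the filter was raised from 10 to 100 and to 1000. At a mean of at least 100 it was 18.6%, 12.1% and 18.1% at NSN for -/- against +/+, +/- against +/+ and -/- against +/-, 2.39% for +/- against +/+ at SN, and 22.4% and 18.3% between stages in +/+ and +/- oocytes. With no filter it was lower than reported in 7 comparisons and higher in +/- against +/+ oocytes at both stages, where the SN value was 17.7%. At a mean of at least 1000, added after the data were seen, it was 11.4%, 7.91% and 13.9% at NSN, 19.0%, 0.917% and 16.4% at SN in the same order, and 14.1%, 12.3% and 15.1% between stages in +/+, +/- and -/- oocytes. No member value past the fold as reported changed sign under an alternative, while Tle6 between stages in +/- oocytes came to lie past it with the opposite sign within index sets, as given above. Without the marker-rich libraries no SN value of -/- oocytes can be given, since both are among them. The lowest summed count of a member in a group was 4683, so counting error is small beside the spread over oocytes, and the number of oocytes and the unnamed mice set the limit.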
